A study of Caenorhabditis elegans with 35 samples.

Results

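The 10 genes described here, fog-1, fog-2, fog-3, fem-3, tra-1, tra-2, gld-1, fbf-1, fbf-2 and cpb-1, act in Caenorhabditis elegans in the choice of a germ cell between sperm and oocyte, or in carrying out that choice. They were chosen by name, as the entries whose symbol in the deposited tables was one of these 10, and they are 10 of the 17378 genes the arrays measured. RNA came from lysates of whole L3 larvae grown at 20 degrees, and each of 35 samples was hybridised to its own array. Generations F4 and F5 each held 3 groups. The first, +/+ from +/+, was wild type with wild-type ancestors and is called the control lineage here. The second, +/+ from wdr-5, was genetically wild type with wdr-5 mutant ancestors and is called the descendants. The third, wdr-5/wdr-5, was homozygous mutant for wdr-5 and is called the mutants. Each group had 6 arrays, 3 from each of 2 birth days, except the F5 descendants, with 2 arrays from birth day 1 and 3 from birth day 2. The labels do not say whether samples of a group came from separate cultures, so p-values measure only the spread between these samples, which may be technical.

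The hermaphrodite germline makes sperm first, in late larval life, and then switches to oocytes. The membrane receptor TRA-2 promotes female fate by holding back the FEM proteins, which otherwise remove the transcription factor TRA-1. Low TRA-1 activity leaves fog-1 and fog-3 expressed, and their products start spermatogenesis. RNA-binding proteins set the timing: FOG-2 and GLD-1 repress tra-2 mRNA so that sperm can form, and the paralogs FBF-1 and FBF-2 repress fem-3, fog-1 and gld-1 mRNAs. Repression of fem-3 mRNA permits the switch to oocytes.

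Checks on the labels and on the scale come first. The probe set of wdr-5.1, the gene the mutants lack, was at 8.30 to 8.88 log2 on the control and descendant arrays and at 4.01 to 5.91 on the mutant arrays. It fell by 3.63 ± 0.14 log2 (SE, adjusted p = 1.12e-18, limma) in F4 mutants and fell by 3.77 ± 0.14 (adjusted p = 4.21e-19) in F5 mutants against the control lineage. The scale depended on the birth day, with an array's 5th percentile at 3.04 to 3.23 (17 arrays, birth day 1) or 4.12 to 4.21 (18 arrays, birth day 2). Groups were therefore compared within a birth day or with birth day as a term, except where an alternative leaves the day out, and the check for outlying arrays used deposited values of both days. Genes of the male soma were dim, with 9 of 11 below the 25th percentile on most arrays, while all 15 measured oocyte genes were above it on most arrays. In whole larvae, fewer cells of a type and less RNA per cell cannot be told apart. Whether the samples differed in developmental stage was not tested.

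The 10 genes had 14 probe sets, of which 12 were distinct. Those of fog-1 repeated each other's values on every array, as did those of fog-2, and tra-1 and tra-2 each had 2 that differed. For these the brighter probe set is given first. The tra-1 probe set was dim, below the 25th percentile of its array on 26 of 35 arrays, and its second probe set was below it on all 35. The second tra-2 probe set was below it on 34. The other 9 genes stayed above the 25th percentile on every array. fbf-1 and fbf-2 are near-identical copies, so that cross-hybridisation between their probe sets cannot be told apart from their own signal. In the RefSeq table, fog-1, fog-3 and gld-1 lie on chromosome I, tra-2, fbf-1 and fbf-2 on II, tra-1 and cpb-1 on III, fem-3 on IV and fog-2 on V.

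**Figure D1:**
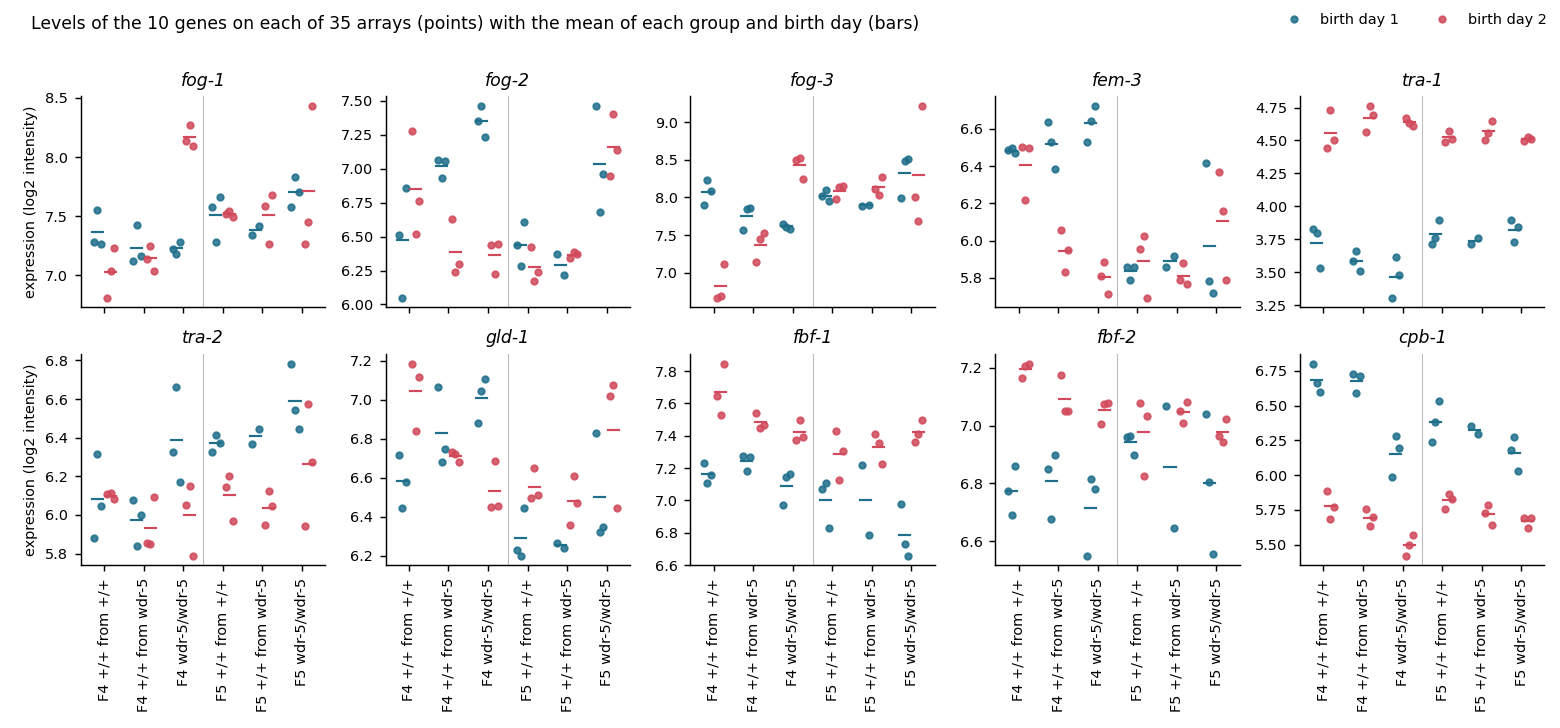
Level of each of the 10 genes (vertical axis, log2 intensity) on each of 35 arrays, by group (horizontal axis), with birth day shown by colour and the bar at the mean of each group and birth day. The F4 mutants of birth day 2 stand above the F4 control lineage of that day for fog-1 and fog-3, and the F4 mutants stand below it on both days for cpb-1.

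Over both birth days, cpb-1 was lower in F4 mutants than in the control lineage and was the only one of the 10 genes that passed the test (adjusted p under 0.05 over 20806 probe sets, limma). For comparison, 10.3% of all probe sets passed. Against the F4 descendants, cpb-1 was lower and fog-1 higher, which makes 2 of 10 beside 11.8% of all probe sets. In F5 the mutants had more fog-2 and less cpb-1 than the control lineage, 2 of 10 beside 33.1% of all probe sets. Against the F5 descendants fog-2 alone passed, 1 of 10 beside 30.3%. Nothing is read from these shares as particular to the 10 genes.

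Within a birth day, more of the 10 genes passed in F4 mutants than over both days, and gld-1 passed on both days in opposite directions. On birth day 1, fog-2 and gld-1 were higher and tra-1 and cpb-1 lower than in the control lineage, 4 of 10 beside 36.6% of all probe sets. On birth day 2, fog-1 and fog-3 were higher and fem-3, gld-1 and cpb-1 lower, 5 of 10 beside 13.4%. The difference between mutants and control lineage itself differed between the days for 6 of 10 genes, beside 33% of all probe sets. Those 6 were fog-1, fog-2, fog-3, fem-3, tra-1 and gld-1, of which tra-1 lost this call after quantile normalization. The 10 genes had a median difference of -0.066 log2 for the former day, where all probe sets had -0.078, and of -0.20 for the latter, where all had 0.0090.

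**Figure D2:**
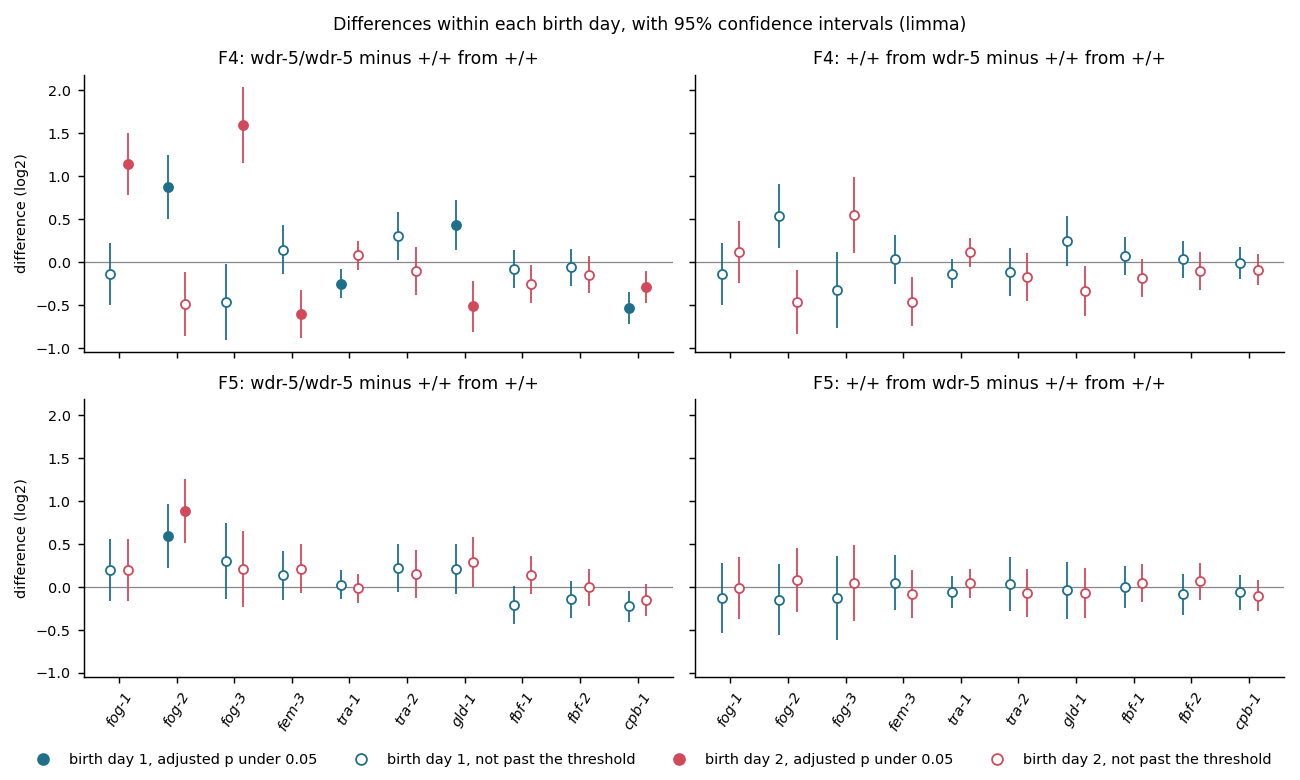
Difference in log2 level (vertical axis) for each of the 10 genes within each birth day, in F4 and F5, with 95% confidence intervals from limma. In F4 mutants against the control lineage, fog-1 and fog-3 lie at 1.14 and 1.60 on birth day 2 and at -0.14 and -0.46 on birth day 1.

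Over the 18 arrays of birth day 2, the terminal pair had the widest spans of the 10 genes, 2.54 log2 for fog-3 and 1.62 for fog-1. Over the 17 of birth day 1, fog-2 spanned 1.41, fem-3 1.01, fog-3 0.94 and fog-1 0.71. fog-3 encodes a protein of the Tob family that starts spermatogenesis. On birth day 2 the F4 control lineage had fog-3 at 6.67, 6.70 and 7.12 log2, the descendants at 7.15, 7.45 and 7.53, and the mutants at 8.50, 8.53 and 8.25. These 3 F4 groups did not overlap, with the mutants highest and the control lineage lowest. Mutants exceeded the control lineage by 1.60 ± 0.22 log2 (SE), a 3.03-fold higher intensity (adjusted p = 7.97e-06, limma), and the descendants by 1.05 ± 0.22 (adjusted p = 0.00187). The descendants stood 0.55 ± 0.22 above the control lineage, which did not pass the test (adjusted p = 0.403). Without F5 mutant replicate 6, an array outside this comparison that widens the shared spread, the same difference passed (adjusted p = 0.0479).

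On birth day 1 the order for fog-3 was turned. The F4 control lineage had 7.90, 8.23 and 8.09 log2, the descendants 7.57, 7.84 and 7.85, and the mutants 7.65, 7.61 and 7.58. Every control array was above every mutant and descendant array, with overlap between the latter groups. The mutant difference of -0.46 ± 0.22 did not pass (adjusted p = 0.0923), and it passed without F5 mutant replicate 6 (adjusted p = 0.00787). The mutant effect differed between the days by -2.06 ± 0.31 (adjusted p = 2.94e-05). The descendant effect differed by -0.87 ± 0.31 without passing (adjusted p = 0.108), and passed without that array (adjusted p = 0.00824). Within its own array, fog-3 in the F4 control lineage ranked at the 83.1 to 86.1 percentile on birth day 1 and the 68.7 to 73.8 percentile on birth day 2. In the F5 control lineage it ranked at 82.3 to 83.5 and 83.4 to 85.6, so that the F4 control arrays of birth day 2 were low beside the other control arrays.

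fog-1 encodes a cytoplasmic polyadenylation element-binding (CPEB) protein needed with fog-3 for sperm fate, and it followed the same order on birth day 2. There the F4 control lineage had 6.81, 7.04 and 7.23 log2, the descendants 7.14, 7.25 and 7.04, and the mutants 8.13, 8.28 and 8.09. All mutant arrays lay above all arrays of both wild-type groups, which overlapped. The difference from the control lineage was 1.14 ± 0.18 log2, or 2.20-fold (adjusted p = 5.13e-05), and from the descendants 1.02 ± 0.18, or 2.03-fold (adjusted p = 0.000301).

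On birth day 1 fog-1 was at 7.28, 7.55 and 7.27 log2 in the F4 control lineage, at 7.12, 7.42 and 7.16 in the descendants and at 7.23, 7.18 and 7.28 in the mutants. The groups overlapped, and the mutant difference of -0.14 did not pass (adjusted p = 0.567). The mutant effect differed between the days by -1.28 ± 0.25 log2 against the control lineage (adjusted p = 0.000365) and by -1.03 ± 0.25 against the descendants (adjusted p = 0.0281). For fog-3 the latter value was -1.19 ± 0.31 (adjusted p = 0.0338), and fog-1 and fog-3 make 2 of 10 beside 2.39% of all probe sets, which are 498 and ran from 159 to 1474 when 1 array was left out. Leaving out 1 array kept the fog-1 call in 28 of 35 fits and the fog-3 call in 24, with an adjusted p of up to 0.0765 and 0.0914. Every array whose loss ended either call was an F4 descendant or F4 mutant array. Over both days the fog-1 difference was 0.50 ± 0.17 against the control lineage, short of the threshold (adjusted p = 0.0529). It passed in 6 of 35 fits that each left out 1 array (smallest adjusted p = 0.0267). These left out F4 control replicate 2, F4 mutant replicate 1, 2 or 3, or F5 mutant replicate 4 or 6. Against the descendants the fog-1 difference was 0.51 ± 0.17, past the threshold (adjusted p = 0.0449). That call was kept in 21 of 35 fits that each left out 1 array, with an adjusted p of up to 0.134 in the others. It was lost without F4 descendant replicate 1, 3, 4, 5 or 6, F4 mutant replicate 4, 5 or 6, F5 control replicate 1, 4 or 6, or F5 descendant replicate 1, 2 or 4.

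In F5 neither fog-1 nor fog-3 passed in any comparison, and without mutant replicate 6 fog-3 passed against the descendants on birth day 1 (adjusted p = 0.0355). F5 mutants had fog-3 at 7.99, 8.48 and 8.51 log2 on birth day 1 and at 8.01, 7.68 and 9.21 on birth day 2. The F5 control lineage had 8.02, 8.10 and 7.95, then 7.98, 8.14 and 8.15. F5 mutants had fog-1 at 7.58, 7.83 and 7.71, then 7.26, 7.45 and 8.43. Mutant replicate 6 stood highest of the 18 arrays of its day for both genes, while the other birth day 2 mutants were within or below the range of the control lineage. That array also had the lowest mean over the sperm genes, 7.03, and over the oocyte genes, 7.84, of the 3 F5 mutant arrays of its day. Its sperm mean was below the F5 control lineage (7.25 to 7.37) and descendants (7.14 to 7.36) of that day. Its oocyte mean was above both groups (7.34 to 7.69 and 7.26 to 7.48). The part of these lists in its fog-1 and fog-3 levels was not tested.

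cpb-1 was the gene with the steadiest difference from the control lineage in F4. It encodes another CPEB protein, required for spermatocytes to progress through meiosis. The F4 control lineage had 6.80, 6.66 and 6.60 log2 on birth day 1 and 5.88, 5.68 and 5.77 on birth day 2, and the descendants had 6.72, 6.59 and 6.71, then 5.76, 5.63 and 5.70. The F4 mutants had 5.99, 6.28 and 6.20, then 5.42, 5.50 and 5.57. All 6 mutant arrays lay below every same-day array of both wild-type groups, which overlapped. cpb-1 fell by 0.41 ± 0.068 log2 against the control lineage (95% confidence interval -0.55 to -0.27), to 0.754 of its intensity (adjusted p = 0.000139). Against the descendants it fell by 0.36 ± 0.068 (adjusted p = 0.000578).

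By day, cpb-1 in F4 mutants fell by 0.53 ± 0.090 log2 on birth day 1 (adjusted p = 6.89e-05) and by 0.28 ± 0.090 on birth day 2 (adjusted p = 0.0328) against the control lineage. The difference between the days did not pass (-0.25 ± 0.13, adjusted p = 0.136). The call of birth day 1 was kept in all 35 fits without 1 array, and that of birth day 2 in 31, being lost without F4 control replicate 4 or 6 or mutant replicate 4 or 5. Against the descendants, cpb-1 fell by 0.52 on birth day 1 (adjusted p = 0.000265, limma). On birth day 2 that difference was -0.20 and did not pass.

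In F5, cpb-1 was at 6.24, 6.38 and 6.53 log2 in the control lineage on birth day 1 and at 5.76, 5.87 and 5.83 on birth day 2. The mutants had 6.18, 6.27 and 6.03, then 5.70, 5.62 and 5.69. The mutants were below every same-day control array on 5 of 6 arrays. cpb-1 fell by 0.19 ± 0.068 log2, to 0.878 of the control intensity (adjusted p = 0.034), and against the F5 descendants the difference of -0.10 did not pass (adjusted p = 0.286). The F5 call was kept in 28 of 35 fits that each left out 1 array and was lost without control replicate 2, 3, 5 or 6 or mutant replicate 1, 3 or 5, with an adjusted p of up to 0.0975. The F4 and F5 differences from the control lineage differed by -0.22 ± 0.097, which did not pass (adjusted p = 0.295).

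fog-2 and gld-1 act together upstream, on tra-2 mRNA. FOG-2 is an F-box protein that binds GLD-1, an RNA-binding translational repressor that is also needed for oocyte meiosis. In F5, fog-2 was at 6.43, 6.28 and 6.61 log2 in the control lineage on birth day 1 and at 6.42, 6.18 and 6.24 on birth day 2. The F5 descendants had 6.37 and 6.22, then 6.34, 6.39 and 6.37. The F5 mutants had 7.46, 6.68 and 6.96, then 6.94, 7.40 and 7.14. All 6 mutant arrays lay above every same-day array of both wild-type groups, which overlapped.

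fog-2 rose in F5 mutants by 0.74 ± 0.18 log2, or 1.67-fold, against the control lineage (adjusted p = 0.00204) and by 0.76 ± 0.19, or 1.70-fold, against the descendants (adjusted p = 0.00275). It passed within each day as well, at 0.59 ± 0.18 on birth day 1 (adjusted p = 0.0163, beside 25.2% of all probe sets passing) and 0.88 ± 0.18 on birth day 2 (adjusted p = 0.00121, beside 19.1%) against the control lineage. The birth day 1 call was lost without control replicate 2 or without mutant replicate 1, with differences of 0.38 to 0.77 over all such fits. Against the descendants the differences within the days were 0.74 ± 0.20 (adjusted p = 0.011, beside 20.1%) and 0.80 ± 0.18 (adjusted p = 0.00267, beside 20.5%). The former was lost without F5 descendant replicate 2 or mutant replicate 1. fog-2 was the only one of the 10 genes to pass in these day comparisons.

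The rise of fog-2 in F5 mutants went with a rise in germline markers over the group, though not on every array for the sperm genes. Mutant replicate 6 had fog-2 at 7.14 log2 but a mean over the sperm genes of 7.03, below every same-day array of the F5 wild-type groups. Of 15 oocyte genes 15 rose, with a median of 1.42 log2, of 31 sperm genes 27 rose, with a median of 0.82, and of 24 genes of the germline of any stage 17 rose, with a median of 0.37. Of all probe sets 16.9% rose, with a median of -0.035. With the mean of the germline genes as a covariate, the fog-2 difference from the control lineage was 0.11 (adjusted p = 0.671) and from the descendants 0.13 (adjusted p = 0.652). In that fit cpb-1 lost its F5 call as well, at -0.12 (adjusted p = 0.401), and fog-1 and fog-3 passed at 0.68 (adjusted p = 0.00354) and 1.05 (adjusted p = 0.000147). The part of the germline markers in these differences was not tested beyond this covariate.

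In F4, fog-2 was at 6.51, 6.05 and 6.86 log2 in the control lineage, at 7.07, 6.93 and 7.06 in the descendants and at 7.35, 7.46 and 7.24 in the mutants on birth day 1. The mutants were highest, the control lineage lowest, and the 3 groups did not overlap. The mutants rose by 0.88 ± 0.18, or 1.84-fold (adjusted p = 0.000549), and the descendants stood 0.54 ± 0.18 higher without passing (adjusted p = 0.119). On birth day 2 the control lineage had 7.28, 6.52 and 6.76, the descendants 6.63, 6.24 and 6.30 and the mutants 6.44, 6.22 and 6.44. All mutant arrays were then below all control arrays, but the difference of -0.49 ± 0.18 did not pass (adjusted p = 0.0766).

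The fog-2 differences of the days differed from each other by 1.36 ± 0.26 in the F4 mutants (adjusted p = 0.000249). They also differed in the F4 descendants, by 1.01 ± 0.26 (adjusted p = 0.0371), and fog-2 was the only one of the 10 genes to pass there, beside 1.81% of all probe sets, 377 in number and 61 to 1367 when 1 array was left out. That call was kept in 27 of 35 fits without 1 array and was lost without F4 control replicate 1, 2, 4 or 6 or descendant replicate 1, 3, 5 or 6. Both contrasts share the F4 control arrays.

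gld-1 in F4 was at 6.72, 6.45 and 6.58 log2 in the control lineage, at 7.07, 6.68 and 6.75 in the descendants and at 6.88, 7.04 and 7.11 in the mutants on birth day 1. The same groups had 7.18, 6.84 and 7.12, then 6.73, 6.72 and 6.68, then 6.45, 6.69 and 6.46 on birth day 2. On each day the mutants and the control lineage did not overlap, with the mutants higher on birth day 1 and lower on birth day 2. gld-1 rose by 0.43 ± 0.14, or 1.35-fold, on birth day 1 (adjusted p = 0.0202) and fell by 0.52 ± 0.14, to 0.700 of the control intensity, on birth day 2 (adjusted p = 0.0142). The days differed by 0.95 ± 0.20 (adjusted p = 0.000804). The birth day 1 call was lost without F4 control replicate 2 or mutant replicate 2 or 3, and the birth day 2 call without control replicate 4 or 6 or mutant replicate 4 or 6.

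In F5, gld-1 was at 6.83, 6.32 and 6.34 log2 in the mutants on birth day 1 and at 7.02, 7.08 and 6.44 on birth day 2. The control lineage had 6.23, 6.20 and 6.45, then 6.50, 6.65 and 6.51. The groups overlapped on both days, with 1 mutant array of birth day 1 and 2 of birth day 2 above all control arrays. The difference from the descendants, 0.31 ± 0.14, did not pass (adjusted p = 0.0789). Without F5 mutant replicate 6 it was 0.40 (adjusted p = 0.0239), and the difference from the control lineage was 0.33 (adjusted p = 0.0452). On birth day 2 these were 0.57 (adjusted p = 0.00249) and 0.49 (adjusted p = 0.00836) without that array. In the F4 descendants, the difference of gld-1 between the days was 0.59 and did not pass (adjusted p = 0.103; 0.0384 without that array).

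fem-3 encodes a protein that promotes male fate in soma and germline by acting against TRA-1. In F4 on birth day 2 the control lineage had 6.50, 6.22 and 6.50 log2, the descendants 6.06, 5.83 and 5.95, and the mutants 5.81, 5.88 and 5.71. Both groups with wdr-5 ancestry lay below every control array and overlapped each other. fem-3 fell in the mutants by 0.60 ± 0.14, to 0.658 of the control intensity (adjusted p = 0.00329), and the descendants stood at -0.46 ± 0.14 without passing (adjusted p = 0.193). On birth day 1 the mutants had 6.53, 6.64 and 6.72, the control lineage 6.48, 6.50 and 6.47 and the descendants 6.64, 6.53 and 6.38. The mutant arrays were above the control arrays on that day by 0.15, which did not pass (adjusted p = 0.417). The days differed by 0.75 ± 0.20 (adjusted p = 0.00458). In F5, fem-3 lay between 5.69 and 6.42 on all arrays and passed in no comparison. Without F5 mutant replicate 6 it passed against the F5 descendants on birth day 2, at 0.45 (adjusted p = 0.0174). The F4 descendant difference of that day passed without F5 mutant replicate 1 (adjusted p = 0.0421).

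tra-1 encodes a zinc-finger factor that represses male genes and acts upstream of fog-1 and fog-3, and its signal was near the bottom of the arrays. On birth day 1 it was at 3.83, 3.80 and 3.53 log2 in the F4 control lineage and at 3.31, 3.62 and 3.48 in the mutants. The groups overlapped by 1 mutant array. tra-1 fell by 0.25 ± 0.082, to 0.839 of the control intensity (adjusted p = 0.0177). The second tra-1 probe set did not pass there, at -0.039 ± 0.058 (adjusted p = 0.625). For the first, the days differed by -0.33 ± 0.12 (adjusted p = 0.0293), a call lost without F4 control replicate 1, 2, 4 or 6 or mutant replicate 1 or 4. The second did not pass for that day difference either (-0.16, adjusted p = 0.128), nor in any other comparison. The birth day 1 call of the first probe set was lost without F4 control replicate 1 or 2 or mutant replicate 1. After quantile normalization it was lost too (adjusted p = 0.247), as was the call for the difference between the days (-0.21, adjusted p = 0.128). In F5 tra-1 passed in no comparison.

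tra-2, the receptor gene, passed in 1 comparison, where F4 mutants on birth day 1 had 6.33, 6.66 and 6.17 log2 against 6.08, 5.84 and 6.00 in the descendants. The mutants were all higher, without overlap, by 0.42 ± 0.14, or 1.33-fold (adjusted p = 0.0398). With cpb-1, which fell by 0.52 ± 0.090 there (adjusted p = 0.000265), this makes 2 of 10 beside 14.5% of all probe sets. The call was lost without descendant replicate 2 or 3 or mutant replicate 1 or 2. tra-2 gained a call against the F4 descendants over both days without F4 mutant replicate 6 (adjusted p = 0.0361). Against the F4 control lineage it gained one on birth day 1 without control replicate 2 or mutant replicate 3 (smallest adjusted p = 0.0366). In F5 it gained one against the control lineage (adjusted p = 0.0481) and the descendants (adjusted p = 0.0432) without mutant replicate 4. For birth day 2, the passing genes against the descendants were fog-1 and fog-3, 2 of 10 beside 7.31%. The second tra-2 probe set passed in no comparison, with an adjusted p of at least 0.305.

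fbf-1 and fbf-2 passed in no comparison. fbf-1 lay between 6.66 and 7.28 log2 on birth day 1 and between 7.13 and 7.84 on birth day 2, and fbf-2 between 6.55 and 7.07 and between 6.83 and 7.21. The largest difference for fbf-1 in F4 mutants was -0.25 on birth day 2 (adjusted p = 0.134), where the mutants had 7.38, 7.50 and 7.39 and the control lineage 7.64, 7.53 and 7.84. The groups did not overlap on that day. A p above the threshold does not show that these genes had equal levels in the groups.

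Between the wild-type groups, none of the 10 genes passed over both birth days, and neither did any probe set, 0% in F4 and 0% in F5. The differences of the F4 descendants from the control lineage ranged from -0.21 to 0.11 log2, and those of the F5 descendants from -0.085 to 0.013. The smallest adjusted p was 0.999 in F4 and 1.0 in F5 (limma), and 0 of 10 genes reached an unadjusted p under 0.05 in either generation, against 750 and 210 of all probe sets. Within a day in F4, 0 of the 10 genes passed, beside 0.745% of all probe sets on birth day 1 and 0.231% on birth day 2. These 155 and 48 probe sets ran from 16 to 1071 and from 1 to 182 when 1 array was left out. In F5, 0.00961% passed on birth day 1 and 0% on birth day 2, again with 0 of 10 genes, also at an unadjusted p under 0.05. An unadjusted p under 0.05 was had in F4 by 1 of 10 genes on birth day 1, beside 19% of all probe sets, and by 4 of 10 on birth day 2, beside 8.67%. The comparisons share their control arrays with those of the mutants, so the values are given side by side only.

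Whether the mutant difference from the control lineage changed between F4 and F5 was tested on differences averaged over the birth days. None of the 10 genes passed, beside 0.00961% of all probe sets. In F4 the mutant difference had opposite signs on the birth days for fog-2, fog-3 and gld-1 among others. This contrast therefore cannot show a change within a day. An unadjusted p under 0.05 was had by 3 of 10 genes and by 14% of all probe sets. The smallest adjusted p was 0.262, for fem-3 (-0.40). fog-2 had -0.54 (adjusted p = 0.323), gld-1 -0.29 ± 0.18 (adjusted p = 0.478), fog-1 0.31 ± 0.24 (adjusted p = 0.592) and fog-3 0.31 ± 0.33 (adjusted p = 0.717). With array weights in the fit, 5 of the 10 genes passed, fem-3 at -0.59 (adjusted p = 0.0139), fog-2 at -0.73 (0.0275), fog-1 at 0.70 (0.0304), fog-3 at 0.91 (0.0382) and gld-1 at -0.50 (0.0428), and so did 2373 probe sets against 2 without weights. For differences averaged over the birth days, whether those called in 1 generation alone differ between generations thus depended on the weights. The descendant difference was tested likewise, with 0 of 10 genes and 0% of probe sets passing, and 0 of 10 at an unadjusted p under 0.05. Between birth days in F5, the mutant difference from the control lineage passed for 0 of 10 genes (1 unadjusted), beside 0.0721% of all probe sets, and from the descendants for 0 of 10 (0 unadjusted), beside 0.0192%. For the F5 descendants it was 0 of 10 (0 unadjusted), beside 0.00961%.

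The cell type markers moved in F4 with birth day as several of the 10 genes did. In F4 mutants on birth day 1, where 15.6% of all probe sets rose and 21% fell, 15 of 15 oocyte genes rose against the control lineage, with a median of 1.84 log2, 26 of 31 sperm genes, with a median of 1.26, and 14 of 24 genes of the germline of any stage, with a median of 0.36. Of these lists none had a rising gene on birth day 2, where 7.29% of all probe sets rose and 6.08% fell. There, 11 of 15 oocyte genes fell, with a median of -1.24, 3 of 31 sperm genes, with a median of -0.35, and 11 of 24 germline genes, with a median of -0.35. All probe sets had medians of -0.078 and 0.0090 on these days. The mean over the oocyte genes was 7.55 to 8.005 in the F4 control lineage and 9.30 to 9.84 in the F4 mutants on birth day 1, and 8.99 to 9.71 and 7.57 to 8.81 on birth day 2. The oocyte means of these groups did not overlap on either day. The mean over the 6 yolk genes, expressed by the adult intestine, was 8.62 to 9.39 and 10.6 to 11.3 on birth day 1, and 10.3 to 11.5 and 8.05 to 10.6 on birth day 2, with overlap on the latter day. Of 10 moulting genes, 4 fell on birth day 1 and 4 rose on birth day 2. The part of these markers in the differences of the 10 genes within a day was not tested, since the germline covariate was fitted only over both days.

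**Figure D3:**
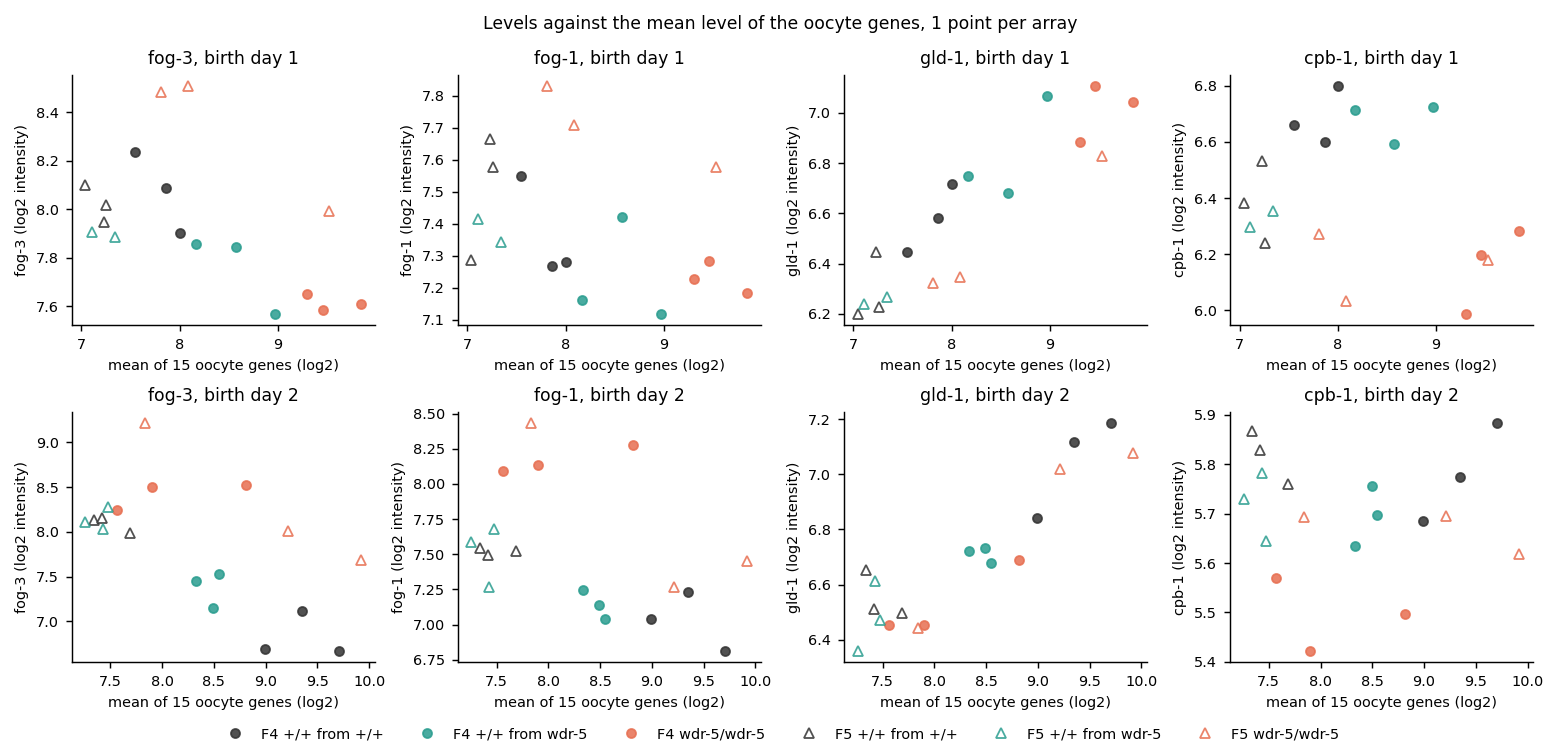
Level of fog-3, fog-1, gld-1 and cpb-1 (vertical axis, log2 intensity) against the mean level of 15 oocyte genes (horizontal axis, log2), 1 point per array, by birth day and group. Arrays with a high oocyte mean have high gld-1 (r 0.908) and tend to have low fog-3 (r -0.530).

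Over the 35 arrays, with values centred on the mean of each birth day, gld-1 followed the mean of the oocyte genes with Pearson's r of 0.908 (Spearman's rho 0.868), 0.907 within birth day 1, 0.915 within birth day 2 and 0.895 without the 2 arrays farthest from the median. fog-2 had r = 0.805, with 0.914 and 0.680 within the days, and fem-3 had r = 0.766, with 0.749 and 0.809. fog-3 ran the other way at -0.530 (within the days -0.543 and -0.594), and fog-1 had -0.377. These arrays share groups and birth days, so the values are descriptions only. In all, 40 relations between a gene and a marker list were computed, and these relations were not particular to the oocyte genes. gld-1 had r of 0.840 with the sperm genes, 0.845 with the germline genes of any stage and 0.81 with the yolk genes. For fog-2 these were 0.797, 0.88 and 0.725, for fem-3 0.674, 0.688 and 0.735, and for fog-3 -0.433, -0.444 and -0.451.

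Among themselves, the 10 genes formed 45 pairs with r from -0.62 to 0.898 and a median of -0.019. The highest was fem-3 with gld-1, at 0.898 (rho 0.887), 0.888 and 0.920 within the days and 0.878 without the 2 farthest arrays. fog-1 and fog-3 followed each other at 0.866 (rho 0.821), with 0.779 and 0.883 within the days. fog-2 followed gld-1 at 0.724 (rho 0.668), with 0.802 and 0.620. The lowest was fog-3 with gld-1, at -0.62 (rho -0.669), with -0.717 and -0.693 within the days. fbf-1 with fbf-2 had 0.514 (rho 0.457).

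**Figure D4:**
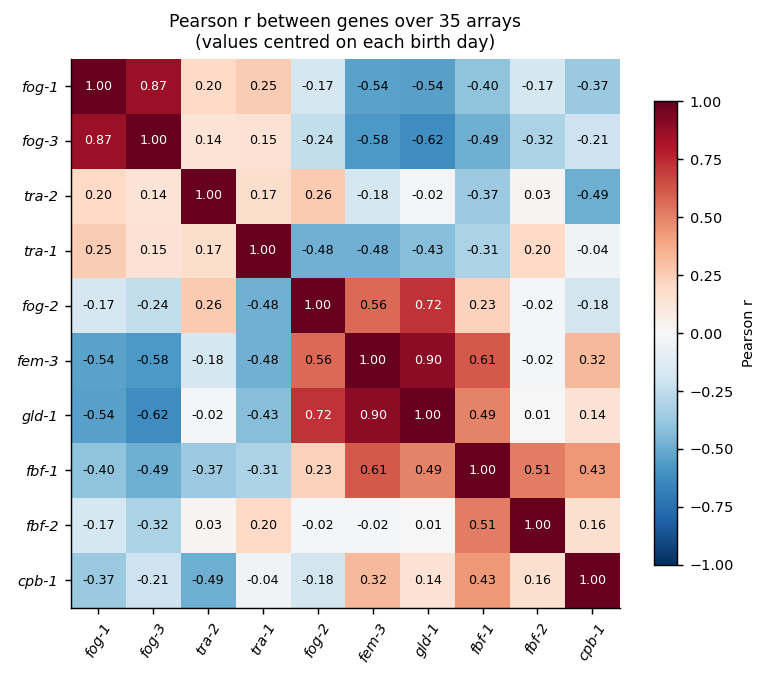
Pearson r between each pair of the 10 genes (both axes) over 35 arrays, with values centred on each birth day and r given by colour. fem-3 with gld-1 (0.898) and fog-1 with fog-3 (0.866) stand highest, and fog-3 with gld-1 (-0.62) lowest.

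The genes whose pattern over the 35 arrays was most like that of gld-1 were tdc-1 (r 0.951), klp-15 (0.946), cdc-25.1 (0.944), mex-6 (0.943) and T12C9.7 (0.940). Those most like fog-1 were ccg-1 (0.915), C53B7.3 (0.909), mrpl-49 (0.870), T27E4.7 (0.861) and mce-1 (0.857). For fog-3 they were T20G5.8 (0.886), F37C4.6 (0.875), gei-15 (0.868), T06E6.10 (0.866) and emre-1 (0.866). cpb-1 had lower values, with fbxa-107 (0.843), ugt-19 (0.830), F57A10.4 (0.818), rho-1 (0.791) and gpb-1 (0.782). The measure is Pearson's r of day-centred log2 values.

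Other genes of the pathway were taken from 4 lists with 54 measured members: 7 upstream genes from the X-to-autosome signal to HER-1, 7 partners of TRA-2, FEM-3 and TRA-1, 35 regulators of the switch and of mitotic or meiotic fate, and 5 somatic targets of TRA-1. In F4 mutants against the control lineage over both days, 2 rose and 2 fell, 7.41% of the 54 beside 10.3% of all probe sets. The fork-head gene fkh-6 of the gonad fell by 0.43 ± 0.098 log2 (adjusted p = 0.00419), and atx-2, the worm ataxin-2 gene, by 0.29 ± 0.069 (adjusted p = 0.00674). The dosage compensation genes sdc-1 and sdc-3 rose by 0.24 ± 0.055 (adjusted p = 0.00501) and 0.57 ± 0.14 (adjusted p = 0.00756). Against the F4 descendants again 2 rose and 2 fell, beside 11.8% of all probe sets: fkh-6 by -0.56, fem-1 by -0.17, sdc-1 by 0.24 and sdc-3 by 0.52.

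In F4 mutants against the control lineage by day, 16 of the 54 rose and 4 fell (day 1), against 2 and 12 (day 2). These were 37% of the 54 beside 36.6% of all probe sets, and 25.9% beside 13.4%, in either direction. By direction, 15.6% of all probe sets rose and 21% fell on birth day 1, and 7.29% rose and 6.08% fell on birth day 2. On birth day 1 the oocyte-expressed RNA regulators puf-11 (1.75 ± 0.28, adjusted p = 3.84e-05), nos-2 (2.35 ± 0.39, adjusted p = 5.32e-05) and oma-2 (1.80 ± 0.33, adjusted p = 0.000163) rose, and atx-2 fell (-0.45 ± 0.085, adjusted p = 0.000192). For birth day 2, daz-1 (-0.86 ± 0.16, adjusted p = 0.000344), cpb-3 (-0.64, adjusted p = 0.00559), lag-1 (-0.50, adjusted p = 0.0104) and fkh-6 (-0.48, adjusted p = 0.0107) fell. For the difference between the days, 15.1% of all probe sets passed upward and 17.9% downward, 33% in either direction. That difference passed upward for 21 and downward for 2 of the 54, or 42.6%, with nos-2 at 3.49, oma-2 at 2.85, puf-11 at 2.40 and cpb-3 at 1.18. In the F4 descendants, puf-11 alone passed for it, at 1.58 ± 0.40 (adjusted p = 0.0354), 1.85% of the 54 beside 1.81%.

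Against the F4 descendants, 8 of the 54 rose on birth day 1, led by nos-2, puf-11, oma-2 and rpn-10, and none fell. These are 14.8% of the 54. Of all probe sets 8.31% rose there, and 14.5% passed in either direction. The 2 that fell on birth day 2, where none rose, were fkh-6 at -0.76 and daz-1 at -0.56. These are 3.7% of the 54. Of all probe sets 3.2% fell there, and 7.31% passed in either direction. In F5 mutants against the control lineage 20 rose and 8 fell, of which 18 and 3 were among the 35 regulators of the switch. These 28 are 51.9% of the 54, beside 33.1% of all probe sets, of which 16.9% rose and 16.1% fell. mog-1, an RNA helicase gene required for the switch to oocytes, rose by 0.73 ± 0.11 (adjusted p = 9.23e-06), puf-11 by 1.59 ± 0.29 (adjusted p = 0.000119), the sex-signal gene xol-1 by 0.19 ± 0.036 (adjusted p = 0.00015) and rnp-8 by 0.92 ± 0.18 (adjusted p = 0.000194). Against the F5 descendants 18 rose and 5 fell, 42.6% beside 30.3%, with puf-11 at 1.64, mog-1 at 0.61, rnp-8 at 0.92 and mog-3 at 0.43. In F5 within the days, 16 rose and 4 fell on birth day 1 and 15 rose and 1 fell on birth day 2, 37% beside 25.2% and 29.6% beside 19.1%. No pathway gene passed in the pooled descendant comparisons or in those between generations.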

How the data were processed

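The deposited values are log2 intensities per probe set made by the authors with RMA, per the submitters' processing notes; the RMA version is not given in the sources used here, and the values run over a range that fits base 2. All 20806 probe sets that are not controls were fitted. Of these, 15504 were named through the RefSeq table by transcript accession and 4660 by symbol, 600 kept the deposited symbol alone and 42 had none. Levels and fits used limma 3.58.1 in R 4.3.3 (lmFit, then eBayes with an intensity trend), with the 6 groups and birth day within generation as terms over all 35 arrays. Comparisons within a day and between days used a mean for each group and day. Tests were two-sided, with Benjamini-Hochberg adjustment over all 20806 probe sets and a threshold of 0.05. Array number, not read depth, limits the precision. The deposited tables carry no detection calls, so a dim probe set is one below the 25th percentile of an array. For a gene with several probe sets, the brightest is given, with the other where it differs. Every probe set of the 10 genes was tested in every comparison, and values are printed for those that passed and for the contrasts a result turns on. From the pathway lists every called gene was counted and up to 4 with the smallest p were named, and for likeness the 5 genes of highest r were named. The members and lists were chosen with earlier results of these data known. The fitting script was tested on simulated data. Alternatives were no birth day term, a replicate block, no intensity trend, quantile normalization, a filter on dim probe sets, array weights, a germline covariate, arrays of the same generation or birth day alone, and each array left out in turn.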

Additional observations from a re-analysis of the deposited data

Results flagged for a closer look

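Outlying arrays were sought in 60 sets of values, 1 per gene and group, with the deposited values of both days together. The days differ in scale, so a gap between them can hide an outlying array, and the share of sets that chance flags is not known. In 4 sets an array had a gap to the others above Dixon's 95% critical value. They were fog-2 in F5 descendants, replicate 2, at 6.22 log2; fem-3 in the F4 control lineage, replicate 5, at 6.218; gld-1 in F4 descendants, replicate 1, at 7.066; and fbf-2 in F5 descendants, replicate 2, at 6.646.

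The difference of the F4 mutants from the F4 control lineage differed between the birth days, by the test of the difference itself in limma, for 6 genes: fog-1 by -1.275 log2, fog-2 by 1.3622, fog-3 by -2.058, fem-3 by 0.7497, tra-1 by -0.331 and gld-1 by 0.9453, each as birth day 1 minus birth day 2. In the F4 descendants against the control lineage fog-2 differed between the days by 1.0086. In the F4 mutants against the descendants, fog-1 differed by -1.0252 and fog-3 by -1.192. The tra-1 call against the control lineage was lost after quantile normalization.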

How the results depend on the processing

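No difference of the 10 genes that passed was reversed under the alternatives run. Counts of the 10 genes that moved by over 1.5 times are these. Without a birth day term they fell to 0 in F4 mutants against the control lineage (from 1), 0 against the descendants (from 2) and 1 in F5 mutants against the control lineage (from 2). With the replicate block, the F4 mutant count against descendants was 1 (fog-1 adjusted p 0.0712) and the F5 count against the control lineage 1 (cpb-1 0.0654), while no other call among the pooled comparisons moved a count. The numbers were not taken to pair samples: same-numbered samples correlated at -0.295 to 0.317 (median 0.033; 11 of 34 over 0.1) and others at -0.361 to 0.342 (median -0.017; 18 of 68). With quantile normalization F4 mutants against descendants had 1 over both days (fog-1 0.0818) and 1 on birth day 1 (tra-2 0.0938). The dim filter gave 2 in F4 mutants against the control lineage (fog-1 0.045). Array weights gave 4 there, 2 in F5 mutants against descendants, and 5 in the mutant contrast between generations, where 2373 probe sets passed against 2. The germline covariate gave 4 in F4 mutants against the control lineage (fog-1 0.52, fog-3 0.60 and fem-3 -0.25 added) and 2 in F5 mutants against descendants (fog-1 0.74 and fog-3 1.08 in place of fog-2). The germline mean of the F5 mutants did not overlap that of the F5 descendants or the F5 control lineage on either day, so that fit cannot tell covariate from group. Arrays of 1 generation gave 1 in F4 mutants against descendants and 2 in F5 mutants against descendants (gld-1 0.0475). Arrays of 1 birth day gave 1 in F4 mutants against descendants on birth day 1 (tra-2 0.0528) and 2 in F5 mutants against descendants on birth day 1 (fog-3 0.0438). The cause was not tested. In the fits of birth day 1 alone and after quantile normalization, tra-1 lost its F4 mutant call (adjusted p 0.0534 and 0.247) and fog-3 gained one (0.0114 and 0.0379), and gld-1 lost its call under quantile normalization (0.0551).

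Leaving out 1 array gave counts of 1 to 2 in F4 mutants against the control lineage and against the descendants, 1 to 3 and 1 to 2 in F5 mutants against the same groups, and 0 for the pooled descendants and generation contrasts. By day, F4 mutants against the control lineage had 3 to 5 (birth day 1), 3 to 6 (birth day 2) and 5 to 6 (difference); against descendants 1 to 2, 2 to 2 and 0 to 2. F4 descendants had 0 to 1 on each day and 0 to 3 for the difference. F5 mutants against the control lineage had 0 to 2 (birth day 1) or 1 to 2 (birth day 2), and against descendants 0 to 2 or 1 to 3. Counts over all probe sets also moved without a birth day term (409, 599, 2776 and 2412 in the 4 mutant comparisons against 2142, 2455, 6878 and 6294) and with the germline covariate (4118, 3913, 2502 and 2210; generation contrast 155). Other counts that moved by over 1.5 times include, under quantile normalization, 21 for 2 (generation contrast), 19 for 155 (F4 descendants, birth day 1) and 2325 for 1520 (F4 mutants against descendants, birth day 2), and on birth day arrays alone 9 for 155 and 10 for 48 in the F4 descendants. Leaving out 1 array moved the counts over all probe sets to 1403 to 2812 (F4 mutants against the control lineage), 1 to 136 (mutant contrast between generations), and by day, for F4 mutants, 1486 to 3455 (control lineage, birth day 2), 1930 to 3801 and 826 to 2002 (descendants). For F5 mutants they were 3003 to 5811 and 2061 to 4835 (control lineage), and 1624 to 4840 and 2025 to 5304 (descendants). The number of arrays, 2 or 3 per group and day, limits what each day can show.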
